A study of Mus musculus with 32 samples.

Results

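Ba/F3-IL-12Rβ1-IL-23R cells are murine Ba/F3 pro-B cells that carry transduced human gp130 and, in addition, the IL-23 receptor chains IL-23R and IL-12Rβ1. They make up 8 of the 32 gene arrays of the series and were chosen by title: the arrays numbered 13, 15, 17 and 19 of this line were set against those numbered 14, 16, 18 and 20, in the pairs 13-14, 15-16, 17-18 and 19-20. The labels describe the second chain as an IL12Rβ1 variant and do not state which array was stimulated, so the groups are called odd and even throughout. The odd arrays are the ones with high Socs3, which is how the groups were told apart, and every odd against even value of this line is therefore a description without a test.

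The 3 other lines, with 8 arrays each, were Ba/F3-gp130 with human gp130 alone, SyCyR(IL-23/2A), which carries IL-23R and IL-12Rβ1 with nanobodies against mCherry and GFP in place of their extracellular parts, and SyCyR(IL-23R), which carries IL-23R with the GFP nanobody. All are Ba/F3-gp130 cells. According to the methods, the cells were kept in Hyper-IL-6, a fusion of IL-6 with its soluble receptor, and then starved of serum. They were exposed for 1 h to a ligand (Hyper-IL-23, a single-chain IL-23, for the natural receptor) or to supernatant of untransfected CHO-K1 cells. There were 4 biological replicates. For the Ba/F3-gp130 arrays the methods name no ligand. Later responses were not sampled. Each receptor complex is represented by 1 retrovirally transduced line. The values are RMA levels on the log2 scale, normalised by the authors. In the IL-12Rβ1-IL-23R line the correlation between any pair of arrays across probe sets lay between 0.988 and 0.995, and no arrays held identical values.

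IL-23 is a heterodimeric cytokine that brings IL-23R and IL-12Rβ1 together. JAK2 and TYK2 bound to these chains then phosphorylate the receptor, and STAT3 is the main transcription factor recruited to it. In T cells this pathway is known for maintaining Th17 cells. Ba/F3 cells normally depend on IL-3, and a transduced receptor that activates STAT proteins can take its place. Early STAT3 target genes include feedback inhibitors of the receptor, survival kinases and transcription factors.

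In the IL-12Rβ1-IL-23R line the receptor genes matched the label. Il23r lay between 13.17 and 13.33 in the odd arrays and between 13.20 and 13.28 in the even arrays. In the other 3 lines the same probe set lay between 5.95 and 6.78. Il12rb1 lay between 12.34 and 12.65 in the odd arrays and between 12.43 and 12.69 in the even arrays, against 7.83 to 8.44 in the other lines. Both transduced chains were thus high in all 8 arrays, and the odd and even groups overlapped. The SyCyR lines also carry chains with parts of these receptors. Yet Il23r averaged 6.32 (SyCyR(IL-23/2A)) and 6.23 (SyCyR(IL-23R)) in even arrays, against 6.58 in Ba/F3-gp130. Il12rb1 averaged 8.19 in even SyCyR(IL-23/2A) arrays, against 8.03 in Ba/F3-gp130. These probe sets are therefore no measure of the synthetic chains. Il6st, the mouse gene of gp130, was near 5.9 in every group. Jak2 (10.64 ± 0.21 and 10.72 ± 0.11, SD, n = 4) and Tyk2 (8.50 ± 0.19 and 8.75 ± 0.14) overlapped between odd and even arrays, while Stat3 lay at 11.68 ± 0.14 in the odd and 11.34 ± 0.14 in the even arrays without overlap.

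The markers of the labelled cell type were found only in part. Of 16 measured pro-B cell markers, 6 exceeded 7.04 on average. This value is the median of the probe set means and serves as a floor below, since the table holds no detection calls. Ptprc (CD45) was at 11.59 in the odd and even arrays and Cd79a, a chain of the B cell receptor complex, was at 10.37 and 10.49. The B lineage factors Pax5 and Ebf1 were at or below 6.57 in both groups, as were Rag1, Rag2 and Dntt, which serve receptor gene assembly. Of the other lists, 4 of 11 mast cell and basophil, 6 of 15 granulocyte and macrophage and 1 of 8 T cell markers exceeded the floor on average. In the erythroid and megakaryocyte list 5 of 7 did. Single bright genes were Gata2 at 12.18 and 12.50, Gata1 at 10.96 and 11.00, and the granule protease gene Prtn3 at 11.55 and 11.47. No marker of the pro-B, mast cell and basophil, granulocyte and macrophage, T cell or erythroid and megakaryocyte lists met the count rule between odd and even arrays, nor did any of 9 measured reference genes.

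A probe set was counted when its group means lay 1.5-fold or more apart, the limit that the methods name, and the 4 odd and 4 even arrays did not overlap. Of 23410 probe sets with a symbol, 199 were counted higher in the odd arrays (0.850%) and 31 lower (0.132%). With the probe sets without a symbol included, 246 were higher and 203 lower, so the balance of directions depends on the annotation. Taken as 1 probe set for each of 19938 genes, 145 genes were higher (0.727%) and 29 lower (0.145%). These shares include the gene that defined the groups and are read as description only. Among genes with a mean above the floor, 1.18% were higher and 0.198% lower. Counts in the gene lists below are to be read beside these shares. The lists were chosen with earlier results of these data known. Of the 145 genes, 67 were at least 2-fold higher, 20 at least 4-fold, 9 at least 8-fold and 3 at least 16-fold, while 5 of the 29 were at least 2-fold lower and none 4-fold, with levels under the floor set to the floor. The lower count depended on single arrays: it was 53 probe sets without odd array 13, 80 without the pair 13-14 and 49 without the pair 17-18. In whole-population RNA a larger share of responding cells and more RNA in each cell cannot be told apart.

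**Figure D1:**
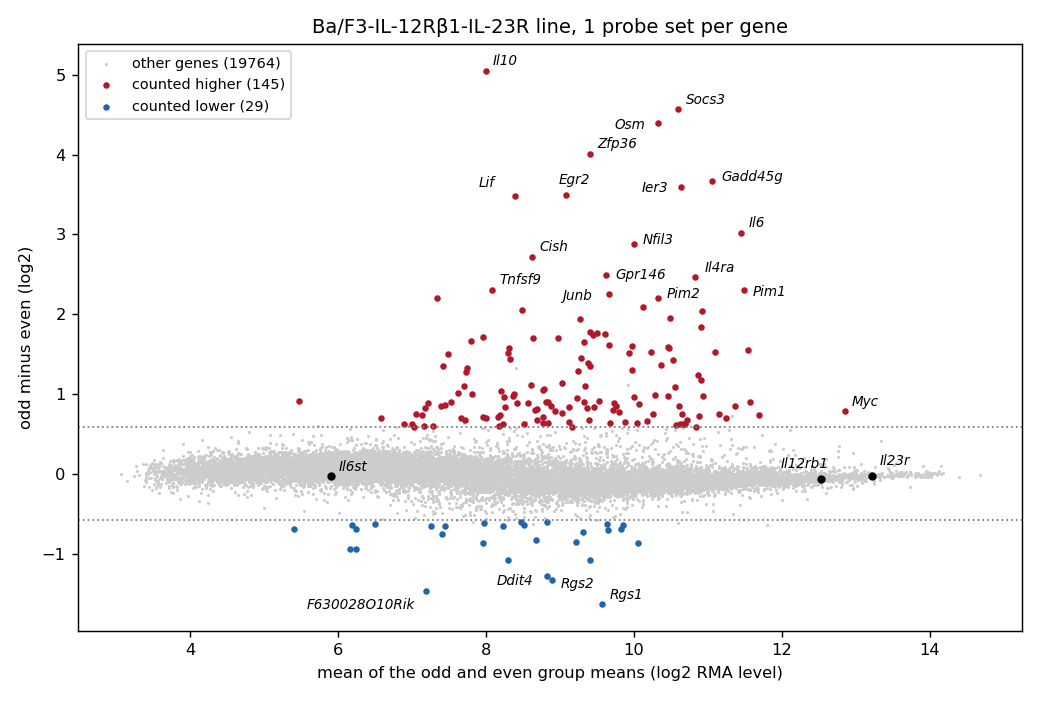
Each point is 1 of 19938 genes, with the mean of the odd and even group means on the x axis (log2 RMA level) and the odd minus even difference on the y axis (log2). Red points are the 145 genes counted higher, blue points the 29 counted lower, and the dotted lines mark 1.5-fold. The measured differences of the higher genes reach 5.05 (Il10, whose even arrays are under the floor) and the lower genes -1.63 (Rgs1), with Il23r, Il12rb1 and Il6st near 0.

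Feedback inhibitors of cytokine receptors stood near the top. Socs3, which binds JAK kinases and blocks signaling from gp130-type receptors, was at 12.88, 12.89, 12.76 and 13.01 in odd arrays 13, 15, 17 and 19 and at 8.40, 8.24, 8.20 and 8.44 in even arrays 14, 16, 18 and 20. That is 12.89 ± 0.10 against 8.32 ± 0.12 (SD, n = 4), a 23.7-fold difference, and the 4 pair differences had an SD of only 0.07. A second Socs3 probe set gave 2.90 (log2). Cish, the SOCS family member known as a target of STAT5, was at 10.29, 10.23, 9.51 and 9.92 in the odd arrays and at 7.21, 7.21, 7.47 and 7.18 in the even arrays. The groups were 2.72 (log2) apart, and array 17 was the lowest of the odd arrays. Socs1 was 1.51 (log2) higher. The other 5 measured members were not counted: Socs2 was 0.29 higher without overlap and Socs4, Socs5, Socs6 and Socs7 overlapped.

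The promoters of Socs3, Cish and Zfp36 are shown because, of the 15 genes with the largest positive difference, they are the ones whose RefSeq promoter (GRCm38.p6, 250 bases before to 50 after the start) held one of the motifs searched on both strands. These were the STAT site TTCNNNGAA, the cyclic AMP element TGACGTCA and the CArG box, which serum response factor binds. Capitals mark the STAT site and, in Zfp36, also the CArG box.
Socs3, chr11:117969367-117969616, minus strand, the 250 bases before the start: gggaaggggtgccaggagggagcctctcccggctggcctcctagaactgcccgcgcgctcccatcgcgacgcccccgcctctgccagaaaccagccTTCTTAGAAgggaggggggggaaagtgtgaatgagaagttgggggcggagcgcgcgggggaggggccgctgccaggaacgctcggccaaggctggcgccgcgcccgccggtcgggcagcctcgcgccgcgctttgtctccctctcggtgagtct
Zfp36, chr7:28379229-28379478, minus strand, the 250 bases before the start: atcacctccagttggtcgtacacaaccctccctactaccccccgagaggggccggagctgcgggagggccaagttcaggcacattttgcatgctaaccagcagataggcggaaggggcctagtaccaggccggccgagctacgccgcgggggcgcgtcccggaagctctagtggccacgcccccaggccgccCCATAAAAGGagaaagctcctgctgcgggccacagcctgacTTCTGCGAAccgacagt
Cish, chr9:107296409-107296678, plus strand, the 250 bases before the start and 20 after it: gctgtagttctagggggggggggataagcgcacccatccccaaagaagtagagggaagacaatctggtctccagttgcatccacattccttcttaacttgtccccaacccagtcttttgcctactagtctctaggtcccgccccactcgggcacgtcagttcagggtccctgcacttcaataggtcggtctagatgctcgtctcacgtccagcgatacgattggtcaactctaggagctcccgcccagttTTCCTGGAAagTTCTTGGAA
The Socs3 site TTCTTAGAA begins 154 bases before the start. The Zfp36 site TTCTGCGAA begins 17 bases and its CArG box CCATAAAAGG 58 bases before the start. The Cish sites TTCCTGGAA and TTCTTGGAA begin at bases 1 and 12 of the transcript. Among 15563 measured genes with a promoter in the table, 7.85% held a STAT site, 2.50% the cyclic AMP element and 1.43% a CArG box, and a match of letters is no evidence of binding. Promoters of 9 other genes among the 15 held none of the 3 motifs in this window, and Osm, Il10 and Tnfsf9 were not matched. Of the counted genes, 131 of 174 had a promoter entry. A STAT site was held by 13 of 107 higher genes (12.1%) and 3 of 24 lower genes (12.5%). The cyclic AMP element was held by 2.8% and 4.17% of them and the CArG box by 1.87% and 0%. Of the genes at least 2-fold higher, 10 of 52 held a STAT site (19.2%), 0% the cyclic AMP element and 3.85% a CArG box. Among genes with a mean above the floor, 6.74% held a STAT site, 3.43% the cyclic AMP element and 1.27% a CArG box. Differences from the share of all genes were not tested.

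Of 31 measured cytokine and chemokine genes, Il10, Osm, Lif and Il6 were counted higher and none lower. Il10, an anti-inflammatory cytokine, was at 10.85, 10.82, 9.78 and 10.62 in the odd arrays and at 5.45, 5.63, 5.34 and 5.45 in the even arrays. The means of 10.52 ± 0.50 and 5.47 ± 0.12 were 5.05 apart on the log2 scale. Since the even arrays were below the floor, this is given as at least 11.1-fold. Osm, the IL-6 family cytokine oncostatin M, was at 12.49, 12.68, 12.19 and 12.72 against 7.99, 8.18, 8.12 and 8.24, a 21.0-fold difference with well separated groups.

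Lif, a further gp130 cytokine whose gene is the neighbour of Osm on chromosome 11, was at 10.54, 10.06, 9.92 and 10.01 against 6.79, 6.78, 6.41 and 6.64, at least 8.51-fold higher. Il6 was at 13.04, 13.03, 12.50 and 13.28 against 9.63, 9.46, 10.06 and 10.62, 8.12-fold higher. For Il6 the even arrays (SD 0.52) varied more than the odd arrays (SD 0.33). The other 27 genes of the list were not counted, and the list median was 0.07 (log2) against 0.01 over all genes. Il11 was at 6.44 and 6.29 and Clcf1 at 7.29 and 7.06, both IL-6 family members whose groups overlapped. Tnf came closest, 0.58 higher with overlapping groups. Outside this list Tnfsf9, the 4-1BB ligand, was at least 4.56-fold higher.

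**Figure D2:**
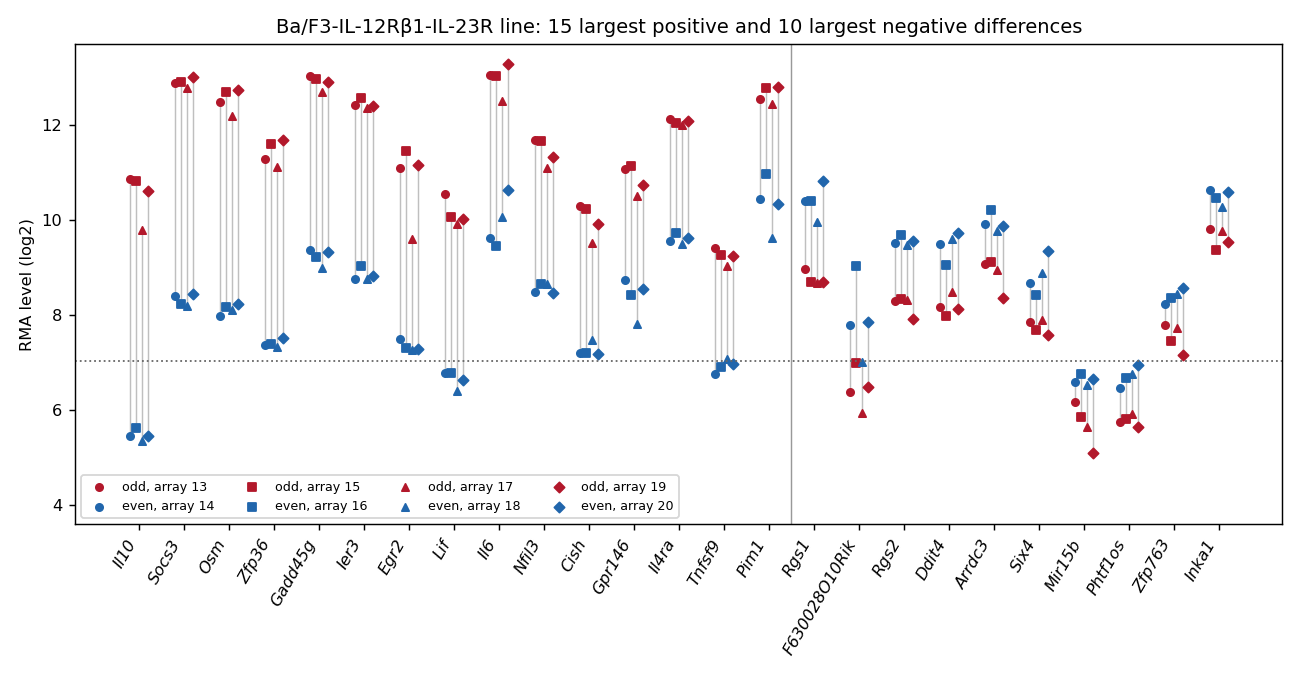
RMA levels (log2, y axis) of the 15 genes with the largest positive and the 10 with the largest negative difference (x axis), red for odd and blue for even arrays, with 1 symbol shape and a grey line for each pair of arrays; the dotted line is the floor of 7.04. All 25 genes separate without overlap, the even arrays of Il10 lie near 5.5, and odd array 17 is low for Egr2 at 9.60.

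Among receptor chains, JAKs and STATs, 1 of 28 measured genes was counted. Il4ra, the shared alpha chain of the IL-4 and IL-13 receptors, was at 12.13, 12.04, 12.00 and 12.07 in the odd arrays and at 9.56, 9.72, 9.50 and 9.61 in the even arrays, 5.50-fold higher with an SD of the pair differences of 0.11. The receptors for the cytokines above did not follow: Osmr (5.41 and 5.27), Lifr (5.88 and 5.82), Il6ra (7.35 and 7.27) and Il10ra (5.83 and 5.77) overlapped between odd and even arrays. Gpr146, a G protein coupled receptor, was outside this list and was 5.60-fold higher.

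The survival kinases Pim1 and Pim2 were 2.30 and 2.21 (log2) higher and Pim3 0.23. Pim1 was at 12.53, 12.78, 12.44 and 12.80 against 10.45, 10.96, 9.62 and 10.33. Its spread lay in the even arrays (SD 0.55), with array 18 the lowest. In the BCL2 family the pro-apoptotic gene Bmf was the only one of 12 measured members counted, 0.73 (log2) higher, and the anti-apoptotic gene Mcl1 was 0.55 higher without overlap but under the fold limit. Bcl2 and Bcl2l1, which encodes BCL-XL, overlapped. Among 14 cyclins and CDK inhibitors the CDK4 and CDK6 inhibitor Cdkn2d was counted, at 12.03, 12.05, 11.89 and 11.82 against 10.01, 9.81, 9.90 and 9.90, a 4.11-fold difference. Ccnd1, Ccnd2 and Ccnd3 overlapped, and Cdkn1b was 0.47 lower without overlap. A second, dimmer Cdkn1b probe set was counted lower at -0.71 (log2), so the p27 gene passed the rule by 1 of its 2 probe sets. A probe set shared by 4930567H12Rik and Cdkn1a was counted higher at 0.82.

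Immediate early genes were uneven. Of 11 AP-1 and ATF genes, 7 were counted higher (63.6%, against 0.727% of all genes) and none lower, with a list median of 0.83 (log2). Junb was at 11.19, 10.87, 10.47 and 10.64 against 8.63, 8.45, 8.78 and 8.31, 4.75-fold higher. Fos was 3.27-fold, Fosl2 3.04-fold and Jun 1.79-fold higher. Fosb, Jund and Atf3 overlapped. Of 8 EGR, NR4A and SRF genes only Egr2 was counted. It was at 11.09, 11.45, 9.60 and 11.16 against 7.49, 7.32, 7.26 and 7.28, 11.2-fold higher, and its odd arrays had an SD of 0.83 because array 17 was low. Egr1, an early target of ERK signaling, was at 6.78 and 6.61 and overlapped, as did Egr3 and Egr4.

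The IER and GADD45 genes, which respond early to growth factors and stress, were counted higher for 5 of 6 members with a list median of 1.20. Gadd45g was at 13.03, 12.96, 12.69 and 12.90 against 9.37, 9.21, 8.98 and 9.34, 12.7-fold higher. Ier3 was at 12.42, 12.57, 12.35 and 12.41 against 8.76, 9.03, 8.76 and 8.82, 12.1-fold higher with a pair SD of 0.05. Gadd45b was 2.68-fold and Ier5 1.97-fold higher. Gadd45a went the other way, 0.35 (log2) lower with overlapping groups. Of 14 ERK feedback genes, 2 were counted, Spry2 (3.42-fold) and the phosphatase gene Dusp1 (1.55-fold). Dusp5 was 1.70-fold higher in all 4 pairs (0.44 to 0.99, log2) but its groups overlapped, as did those of Dusp6 and Spry1, and Spry4 was 0.41 higher without overlap.

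Zfp36, or tristetraprolin, binds AU-rich elements and promotes decay of cytokine mRNAs. It was at 11.28, 11.60, 11.11 and 11.67 in the odd arrays and at 7.37, 7.40, 7.32 and 7.52 in the even arrays, 16.1-fold higher. Its paralogue Zfp36l1 was 3.00-fold higher, Zc3h12a, which encodes the RNase Regnase-1, was 0.57 (log2) higher without overlap, and Zfp36l2 overlapped at 12.68 and 12.50. Zfp36, Zfp36l1 and the cytokine genes Il10, Osm, Lif and Il6 were high in the same arrays. This holds for every gene counted higher and shows no link between them.

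Transcription factors of the BCL3, BCL6, NFIL3, BHLHE40 and C/EBP list were counted higher for 7 of 11 members, with a list median of 1.28. Nfil3, a basic leucine zipper repressor, was at 11.69, 11.65, 11.10 and 11.32 against 8.49, 8.65, 8.65 and 8.45, 7.36-fold higher. Bhlhe40 was 3.59-fold, Bcl6 at least 3.00-fold and Id2 2.72-fold higher. Cebpa and Cebpb overlapped. In the MYC network Mycn was 2.89-fold and Myc 1.72-fold higher, with Myc at 13.24 ± 0.11 and 12.46 ± 0.23, and the other 7 members were not counted. Klf10 was 0.79 (log2) higher and Klf6 0.64 lower among 10 KLF factors.

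Of 12 NF-κB response genes, 3 were counted higher: Irf1 (3.39-fold), Nfkbiz (2.05-fold) and Icam1 (1.80-fold). Nfkbia, the inhibitor that NF-κB itself induces, was at 10.36 and 10.39. No gene of the Th17 effector list was counted (11 measured, differences from -0.06 to 0.19), and 10 of the 11 had a mean below the floor, Il17a among them at 6.65 and 6.50. None of the 15 measured genes of the interferon response list was counted, with Irf9 closest at 0.57 higher without overlap. This holds for the listed genes only, and Irf1 was not among the 15. A probe set shared by Tgtp2 and Tgtp1 was counted 1.58 (log2) higher. Cd274 (0.997), Sting1 (0.95), Plscr1 (0.74) and Cgas (0.71) were also counted higher. These genes were not among the 15 either and were picked after their values were seen. A difference of interferon genes as a group was not tested. Of 19 glycolysis and hypoxia genes, Hk2 (2.47-fold) and the glucose transporter gene Slc2a1 (1.80-fold) were counted. None of 17 ribosome biogenesis genes and none of 15 cholesterol and fatty acid synthesis genes was counted, and the latter had a list median of -0.13. Of 16 measured genes that the study names from these arrays, 15 were counted higher. They were chosen on these samples and are not independent. Mc5r, the melanocortin receptor gene among them, was 0.57 (log2) lower without overlap, just under the limit.

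**Figure D3:**
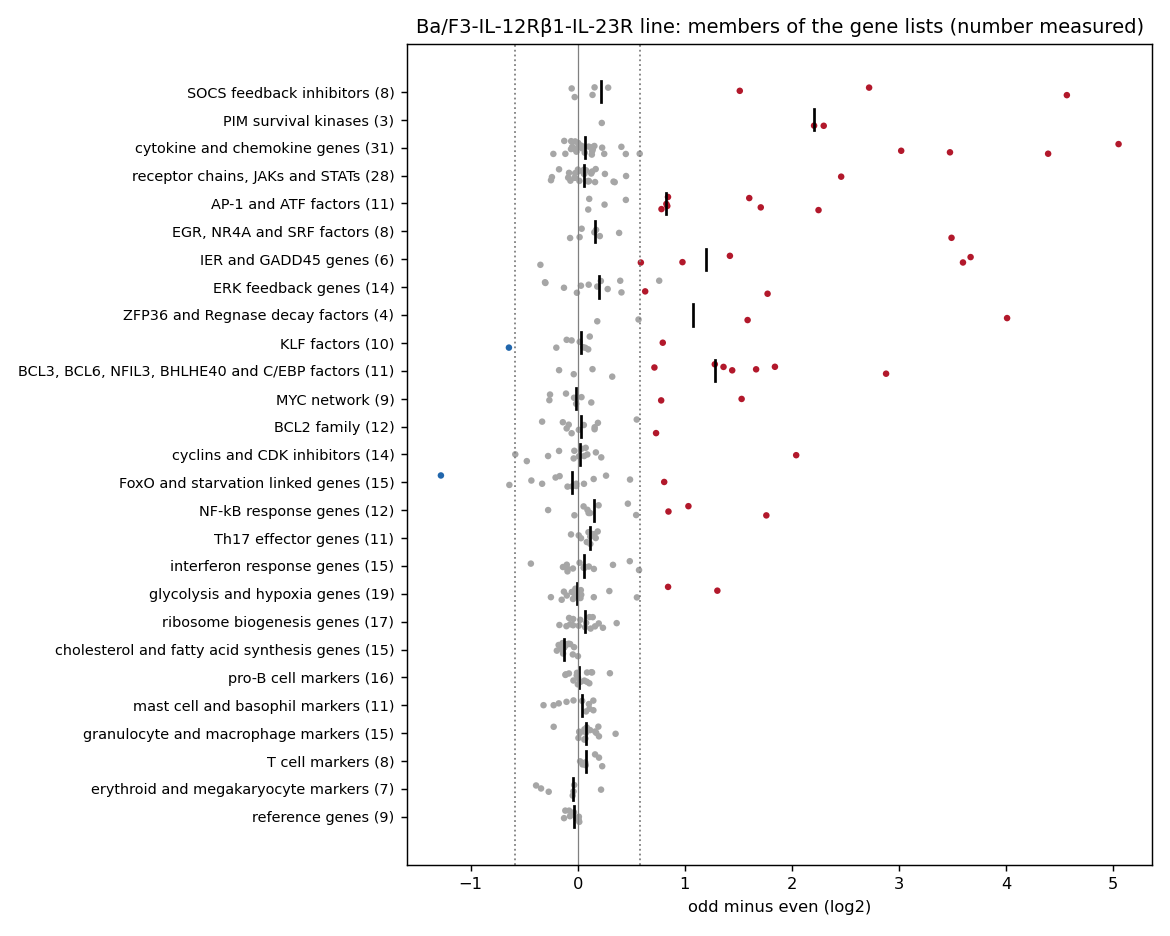
Odd minus even differences (log2, x axis) of the members of each gene list (y axis, number measured in brackets); red points are counted higher, blue lower and grey not counted, black bars are list medians and dotted lines mark 1.5-fold. The IER and GADD45 list has a median of 1.20 and the AP-1 list 0.83, while the cell type marker lists stay within the dotted lines.

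Lower genes were fewer and smaller in size. Rgs1 and Rgs2 speed up the GTPase step of G protein alpha subunits. Rgs1 was at 8.96, 8.69, 8.67 and 8.70 in the odd arrays and at 10.39, 10.40, 9.96 and 10.81 in the even arrays, 3.10-fold lower. Rgs2 was at 8.29, 8.35, 8.31 and 7.92 against 9.52, 9.67, 9.47 and 9.55, 2.52-fold lower. Both separated clearly. Ddit4, an inhibitor of mTORC1 that is induced by starvation and stress, was at 8.17, 7.97, 8.48 and 8.14 against 9.50, 9.05, 9.59 and 9.71, 2.42-fold lower. In the FoxO and starvation list it was the only one of 15 members counted lower and Btg2, an antiproliferative gene, the only one counted higher. Txnip, which inhibits thioredoxin, was 0.64 (log2) lower with pair differences from -0.72 to -0.58 and was not counted because its groups overlapped.

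Arrdc3 and the homeobox gene Six4 were each 2.11-fold lower. F630028O10Rik was at least 1.84-fold lower, with odd arrays below the floor and even arrays from 7.01 to 9.03. Zfp763 and Inka1 were 1.82-fold lower. Phtf1os and Mir15b were counted with both groups below the floor, so no fold is given. Symbols beginning with Zfp made up 10 of the 29 lower genes (34.5%) against 1.76% of all genes, a count made after the values had been seen. The 10 had a median difference of -0.67 and all 350 Zfp genes one of -0.10.

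MicroRNA genes were on both sides. Of the 6 single-symbol probe sets of the miR-17 cluster and its host gene, all had a positive difference, from 0.46 to 0.73 (log2), and 3 were counted: Mir19b-1, Mir17 and Mir17hg. In each of the 6 the pair 13-14 gave the largest of the 4 differences. Mir17 was at 7.42, 7.29, 7.04 and 7.07 against 6.49, 6.77, 6.41 and 6.64, and Mir19b-1 at 7.74, 7.82, 7.08 and 7.33 against 6.49, 7.07, 6.47 and 7.02. Both lay close to the floor with small gaps between the groups. Mir15b was at 6.17, 5.86, 5.64 and 5.09 against 6.58, 6.76, 6.52 and 6.65. Which stage of the microRNA these probe sets read, the primary transcript or a shorter form, was not settled. Mature RefSeq sequences of 1 microRNA gene counted lower and the pair of cluster members counted higher are shown because their seeds, bases 2 to 8 in capitals, differ from each other.
mmu-miR-17-5p, chr14:115043684-115043706 (GRCm38.p6): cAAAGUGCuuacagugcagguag
mmu-miR-19b-3p, chr14:115044358-115044380 (GRCm38.p6): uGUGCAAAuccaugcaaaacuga
mmu-miR-15b-5p, chr3:69009775-69009796 (GRCm38.p6): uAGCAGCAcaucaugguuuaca

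Other counted genes were neighbours. Besides Osm and Lif, the genes on both sides of Socs3, Tha1 and Pgs1, were counted at 0.88 and 0.84 (log2) higher. Il18r1 and Il18rap, the chains of the IL-18 receptor, were 0.62 and 0.63 higher, and Kri1 lay 0.96 higher beside Cdkn2d. Neighbours come from gene order in GRCm38.p6 and were looked up after the counts. Chd7, a chromatin remodeller gene chosen after its values were seen, was covered by many probe sets, most of them counted higher, and the brightest was 1.53 (log2) higher.

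The size of the difference varied between pairs. Over the 145 higher genes the median pair difference was 1.19 (log2) for 13-14, 1.12 for 15-16, 0.83 for 17-18 and 0.93 for 19-20. The pair 13-14 was the largest for 79 genes and 15-16 for 54, and each of the other pairs for 6. For the 29 lower genes the order was another one: the median was -0.55 for 13-14, -0.87 for 15-16, -0.67 for 17-18 and -1.08 for 19-20, and 19-20 was the most negative for 22 genes. Socs3 hardly varied, from 4.49 to 4.65, whereas Egr2 ranged from 2.34 to 4.14.

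**Figure D4:**
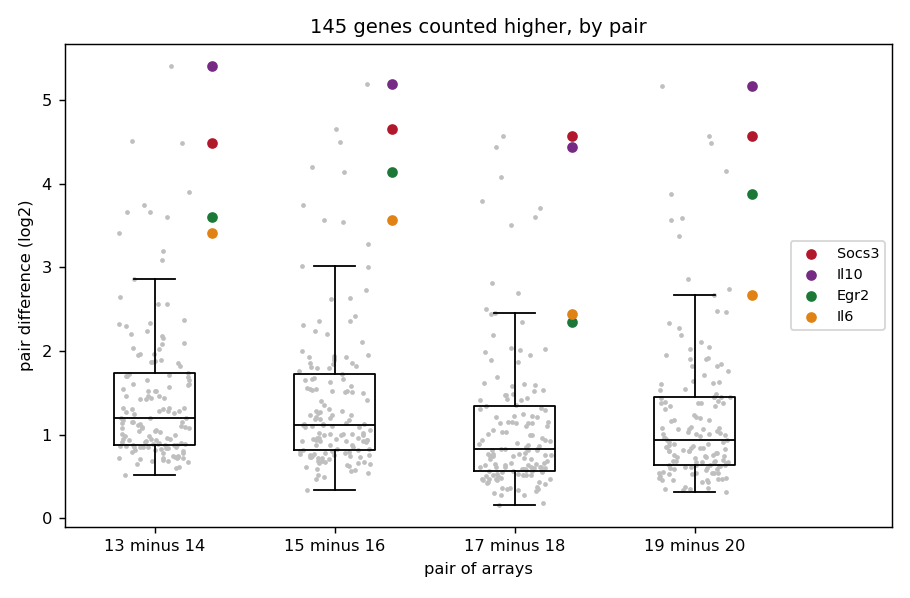
Pair differences (log2, y axis) of the 145 genes counted higher, for the 4 pairs of arrays (x axis); grey points are genes, boxes show the median and quartiles, whiskers reach 1.5 times the box length, and coloured points name 4 genes. The medians are 1.19, 1.12, 0.83 and 0.93, and Egr2 and Il6 are lowest in 17 minus 18 while Socs3 stays near 4.6.

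The same numbers split the arrays of the other lines, which the rule did not use, so the counted genes could be tested there. The labels give no stimulation for these arrays either, and their Socs3 levels were known before. Socs3 is therefore described only: it was 12.73 to 12.82 in odd and 8.83 to 9.09 in even arrays of the SyCyR(IL-23/2A) line. The SyCyR(IL-23R) line had 11.75 to 12.06 in odd and 8.79 to 9.21 in even arrays, and Ba/F3-gp130 had 8.44 to 8.60 and 8.45 to 8.66. Both synthetic receptor lines thus separated by Socs3 and the parental line, for which the methods name no ligand, did not.

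With limma over these 24 arrays, and a limit of 1.5-fold beside an adjusted p (Benjamini-Hochberg) below 0.05, the SyCyR(IL-23/2A) line had 112 probe sets that rose in odd arrays (0.478%) and 4 that fell (0.0171%; 7 with the pairs as a block and 7 without odd array 13). In the SyCyR(IL-23R) line 34 rose (0.145%) and none fell. There 347 (1.48%) were lower at an unadjusted p under 0.05, against 0.739% in Ba/F3-gp130. Both shares lay under the nominal 2.5% for 1 direction, so the nominal share is no background for this fit. In Ba/F3-gp130 none passed in either direction, with 123 higher and 173 lower at an unadjusted p under 0.05, and 1 fell without even array 18. Leaving out Socs3, 144 genes were counted higher in the IL-12Rβ1-IL-23R line. Of these, 84 rose in the SyCyR(IL-23/2A) line, which is 58.3% of the 144 and 91.3% of the 92 genes called there besides Socs3 (0.466% of all genes were called, Socs3 included). In the SyCyR(IL-23R) line 31 rose, 21.5% of the 144 and all of the 31 called there besides Socs3 (0.160% of all genes, Socs3 included). None of the 144 was called in the opposite direction in either line. Of the 29 lower genes, 2 fell in the SyCyR(IL-23/2A) line, Rgs2 and Six4, where 0.0150% of all genes were called lower, and none in the SyCyR(IL-23R) line.

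Osm, 4.39 (log2) higher in the IL-12Rβ1-IL-23R line, rose by 3.89 ± 0.11 (SE) in the SyCyR(IL-23/2A) line (limma, adjusted p = 1.2e-17) and by 2.39 ± 0.11 in the SyCyR(IL-23R) line (adjusted p = 8.9e-13). Il10 rose from an even level under the floor in the SyCyR(IL-23/2A) line (8.51 against 5.35, at least 2.76-fold, limma, adjusted p = 3.4e-12). In the SyCyR(IL-23R) line Il10 passed the test (adjusted p = 0.00015) with both group means, 6.75 and 5.48, under the floor, so no fold is given. Zfp36, 4.01 higher, rose by 3.47 ± 0.12 and 2.29 ± 0.12. Of the 15 genes with the largest positive difference, the 14 other than Socs3 were all called in both synthetic receptor lines, although Il6 lost its call in the SyCyR(IL-23R) line when that line was fitted alone (0.93, limma, adjusted p = 0.081). The differences in the SyCyR(IL-23/2A) line lay beside those of the natural receptor for Gpr146 (2.49 and 2.49), Pim1 (2.30 and 2.53) and Tnfsf9 (2.31 and 2.51, with the even means just under the floor in both), listed with the natural receptor first. In Ba/F3-gp130 the 14 genes lay between -0.26 (Pim1) and 0.15 (Cish), and none was called.

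All 29 lower genes had a negative difference in the SyCyR(IL-23/2A) line (median -0.37, log2) and 28 in the SyCyR(IL-23R) line (median -0.24), against 9 in Ba/F3-gp130. Most missed the limits of the test. Over all genes the medians in the synthetic receptor lines were 0.0028 and -0.0028, and the share of negative signs is not given. Of the 29, 9 had an odd mean under the floor in the IL-12Rβ1-IL-23R line. Rgs1, 1.63 lower in the IL-12Rβ1-IL-23R line, differed by -0.06 ± 0.20 (SE) in the SyCyR(IL-23/2A) line and F630028O10Rik by -0.04 ± 0.11. Both genes had group means under the floor there (5.95 and 6.01, 5.69 and 5.72), so these values show no absence of a response. In the SyCyR(IL-23R) line Rgs1 was above the floor, at 9.81 and 10.02, and differed by -0.21 ± 0.20. In the SyCyR(IL-23/2A) line Ddit4 fell by 0.56 ± 0.10 (limma, adjusted p = 0.0029), just under the fold limit. Arrdc3 lay at -0.74 ± 0.21 (adjusted p = 0.13, but 1.5e-06 with the pairs as a block and 0.028 with array weights). In the other direction Kcnk5, a potassium channel gene, was 1.29 higher in the IL-12Rβ1-IL-23R line and lay at -0.35 ± 0.11 in the SyCyR(IL-23/2A) line (adjusted p = 0.22, overlapping groups). Gpr65 and Cxcr2 rose in the SyCyR(IL-23/2A) line by 1.84 ± 0.21 (limma, adjusted p = 2.6e-06) and 1.26 ± 0.23 (adjusted p = 0.0026) and were 0.11 and 0.09 lower, with overlap, in the IL-12Rβ1-IL-23R line. Both group means of Gpr65 in the SyCyR(IL-23/2A) line were under the floor. Kcnk5, Gpr65 and Cxcr2 were picked after their values were seen. Whether the lines differ in these genes was not tested, since the natural receptor contrast defined the groups. Of the 144 higher genes, 133 had a smaller difference with the synthetic pair of chains than with the natural receptor, but the 144 were chosen by their size in the latter, so the count is no comparison of strength.

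**Figure D5:**
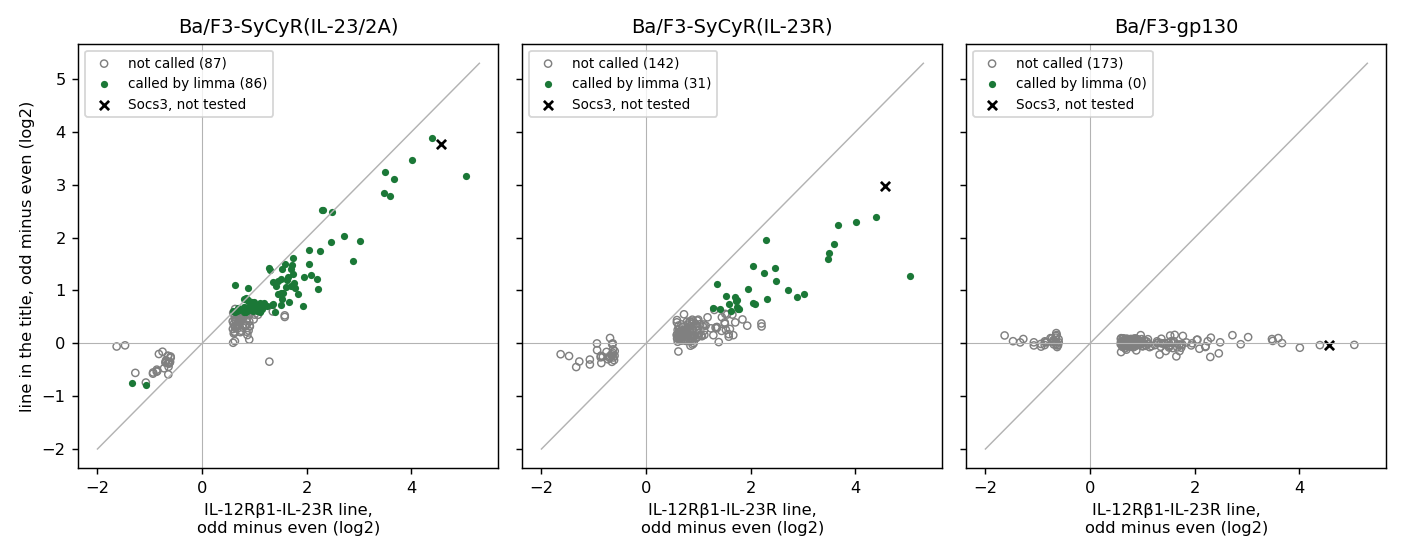
Odd minus even differences (log2) of the 174 counted genes in the IL-12Rβ1-IL-23R line (x axis) against those in each other line (y axis); green points were called by limma in the line of the panel, open points were not, the cross is Socs3, and the diagonal marks equal differences. In the SyCyR(IL-23/2A) line 86 genes were called, in the SyCyR(IL-23R) line 31 and in Ba/F3-gp130 none.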

How the data were processed

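RNA of 32 samples was hybridised to Affymetrix mouse Gene ST arrays. The authors summarised them by RMA (Expression Console, sketch-quantile normalisation) and deposited log2 values. Its version and a genome build are not given in the sources used here. Of 35556 probe sets, 21789 had 1 gene symbol, 1621 several and 12146 none in the platform annotation. The 23410 with a symbol were used, and 21698 of those with 1 symbol matched the gene table of GRCm38.p6. A gene was represented by its probe set with the highest mean over all arrays (19938 genes). The number of arrays limits the precision. Quantile normalisation brings the probe signals of the arrays to 1 distribution before they are summarised, so a shift of all genes could be hidden. The deposited levels still differed in their medians. In the IL-12Rβ1-IL-23R line these ran from 7.02 (even array 16) to 7.18 (odd array 19). With the arrays centred on their medians, 178 probe sets were counted higher and 48 lower.

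Odd and even arrays of the IL-12Rβ1-IL-23R line were described by group means, SD and pair differences, without a p-value. A fold of a gene whose dimmer group lay under 7.04 is given against that floor. The other lines were tested by lmFit and eBayes of limma 3.58.1 (R 4.3.3, 24 arrays, 6 groups, no covariate), adjusted by Benjamini-Hochberg over all 23410, after the script had been tested on simulated data. The methods name a limit of 1.5-fold and a p-value of at most 0.01 without naming the test. Deviations of odd and even arrays of adjacent numbers from their group means correlated in every line, from 0.132 to 0.608. The pairs were therefore also fitted as a block. The pairing comes from the rule, not from a label. In the IL-12Rβ1-IL-23R line odd arrays 15, 17 and 19 correlated most with their partners. Odd array 13 correlated more with even array 16 (0.172) than with its partner 14 (0.132). The values thus do not single out the pair 13-14. The methods state independent biological replicates.

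The members, the 27 gene lists beside that of the study, and the tests were chosen with earlier results of these data known. Genes named are Socs3 and the receptor genes, those the study names, the 15 largest higher and 10 largest lower counted genes with 1 symbol, and list members as examples; others are marked as chosen after their values were seen. Adora3, which the study also names, has no probe set of its own and is left out of the gene counts and rankings. A probe set shared by Tmigd3 and Adora3 was counted higher, at 11.12 in odd and 7.25 in even arrays (3.87, log2). Promoter and microRNA sequences are from RefSeq (GRCm38.p6). Alternatives were the fold limit, pairs in place of overlap, medians, centring, filters on dim and unnamed probe sets, the arrays in the fit, array weights, and leaving out arrays or pairs. Descriptive values were computed in Python 3.11.15 (pandas 2.3.3, numpy 2.4.6) and plotted with matplotlib 3.10.9.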

Additional observations from a re-analysis of the deposited data

Results flagged for a closer look

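Among the 64 groups of 4 arrays formed by 32 named genes in the IL-12Rβ1-IL-23R line, 4 held an array far from the other 3 by Dixon's criterion, which chance exceeds in about 1 of 20 groups. Il23r was at 13.33 in odd array 19, against 13.17 to 13.18 in the other odd arrays. Cish was at 7.47 in even array 18, against 7.18 to 7.21. Rgs1 was at 8.96 in odd array 13, against 8.67 to 8.70, and Rgs2 at 7.92 in odd array 19, against 8.29 to 8.35. None of these values brought the odd and even arrays of Cish, Rgs1 or Rgs2 into overlap.

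For 2 genes all 4 pairs went one way in the IL-12Rβ1-IL-23R line and the opposite way in Ba/F3-gp130. Pim1 was 2.30 (log2) higher in odd arrays of the former and lay at -0.26 in the latter, with pairs from -0.52 to -0.13. Il4ra was 2.46 higher and lay at -0.19, with pairs from -0.24 to -0.10. The difference between the lines was not tested, and neither gene was called in Ba/F3-gp130.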

How the results depend on the processing

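In the IL-12Rβ1-IL-23R line no counted gene among those named changed direction under the alternatives run, while Il6st and Il23r, near 0 and not counted, changed sign under some. Of the counts, 199 higher and 31 lower probe sets became 108 and 7 at 2-fold. The lower count was 48 with arrays centred on their medians, 203 with probe sets without a symbol (246 higher), 80 without the pair 13-14 and 49 without the pair 17-18. Leaving out single arrays gave 187 to 231 higher and 25 to 53 lower, the latter highest without odd array 13. Of the limma counts in the SyCyR(IL-23/2A) line, 112 higher and 4 lower became 48 and 0 at 2-fold, 122 and 7 with the pairs as a replicate block, and 92 to 113 and 4 to 7 without single arrays. The 34 higher in the SyCyR(IL-23R) line became 18 at 2-fold and 36 with the block. In Ba/F3-gp130 the lower count of 0 became 1 without even array 18 (range 0 to 1). With the block Mir15b and Mc5r (adjusted p = 0.0074 and 0.047) passed the adjusted limit in the SyCyR(IL-23/2A) line, as did Myc, Rgs2, Ddit4 and Arrdc3 in the SyCyR(IL-23R) line, and Six4 lost it there. Six4 also lost it with the line alone, all 32 arrays, array weights (adjusted p = 0.84, 0.56 and 0.090) and 6 of the 8 single arrays left out, and Il6 with the line alone. Values near 0 changed sign without single arrays: F630028O10Rik (-0.15 to 0.023) and Rgs1 (-0.17 to 0.026) in the SyCyR(IL-23/2A) line, and Mir15b in the SyCyR(IL-23R) line (-0.15 to 0.059, and 0.014 with array weights). The cause of these changes was not tested. Probe sets near or under 7.04 have only a bound.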
